A study of Mus musculus with 4 samples.

Results

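Tcf7, Lef1, Il7r, S1pr1, Klf2, Slamf6 and Dapl1 are genes by which naive, memory and recirculating T cells are commonly recognised. They were chosen by symbol, without a threshold on any value but with earlier results of these data known, and all 7 were found once among the 27998 genes measured in immune cells sorted from mouse tumours. The cells came from wild-type 129S6 mice carrying transplanted tumours. Mice received 200 µg of anti-PD-1 (RMP1-14), of anti-CTLA-4 (9D9) or both in combination, and control mice 200 µg of a rat IgG2a isotype antibody, on days 3, 6 and 9 after transplant. The sources used here do not state the age of the mice, the tumour line or how many mice made up a library. Live CD45+ cells, that is all white blood cells, were sorted after a collagenase digest and counted by 3′ end droplet sequencing in which a unique molecular identifier (UMI) tags each captured transcript. There was 1 library per group, so no difference below has a replicate check and no test was possible. Library, group and batch cannot be told apart, and every interval covers counting error only.

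T cell factor 1, encoded by Tcf7, and its relative LEF1, encoded by Lef1, are HMG-box transcription factors that act with beta-catenin or on their own, and they keep T cells in a state from which effector cells can still be made. FOXO1 acts upstream of KLF2, and KLF2 in turn drives transcription of S1pr1, whose product lets T cells leave tissue along a gradient of sphingosine-1-phosphate. Signals through the antigen receptor lower this programme in effector cells. The interleukin-7 receptor alpha chain, encoded by Il7r, carries the survival signal of resting T cells, and in tumours and chronic infection T cells with TCF1 and the surface receptor SLAMF6 are the ones that renew the response.

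By the GENCODE annotation of mm10 the members lie on 6 chromosomes. Tcf7 spans chr11:52252371-52283014 on the minus strand and Lef1 spans chr3:131110471-131224356 on the plus strand. Il7r lies at chr15:9505788-9530176 and S1pr1 at chr3:115710433-115715072, both on the minus strand. Klf2 lies at chr8:72319033-72321656, Slamf6 at chr1:171917515-171953170 and Dapl1, a gene known as a transcript of memory-like CD8 cells, at chr2:59484653-59505020, these 3 on the plus strand. RefSeq promoter windows of GRCm38.p6, which run from 250 bases before to 50 bases after a start, were matched by symbol for 6 members and comprised 10 windows. Of these, 4 are shown, because Klf2 was above control and Il7r below it in all 3 treated libraries and Lef1 and Tcf7 encode the factors that bind 1 of the motifs searched. For Lef1 and Tcf7, which have 4 and 2 windows, the one with a TCF and LEF or FOXO match is printed.
Klf2 promoter, chr8:72318812-72319111, plus strand: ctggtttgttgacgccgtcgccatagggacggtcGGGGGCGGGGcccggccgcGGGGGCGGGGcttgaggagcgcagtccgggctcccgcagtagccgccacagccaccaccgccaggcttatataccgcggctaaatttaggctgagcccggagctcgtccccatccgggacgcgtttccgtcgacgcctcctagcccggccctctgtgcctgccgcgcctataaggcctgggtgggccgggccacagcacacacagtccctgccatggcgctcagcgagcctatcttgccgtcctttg
Il7r promoter, chr15:9529827-9530126, minus strand: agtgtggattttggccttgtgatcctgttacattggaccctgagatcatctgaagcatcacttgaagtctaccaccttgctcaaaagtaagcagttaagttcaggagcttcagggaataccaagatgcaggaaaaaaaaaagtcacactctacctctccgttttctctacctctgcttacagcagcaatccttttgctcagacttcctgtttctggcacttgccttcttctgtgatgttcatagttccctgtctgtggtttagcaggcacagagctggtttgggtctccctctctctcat
Lef1 promoter, chr3:131156044-131156343, plus strand: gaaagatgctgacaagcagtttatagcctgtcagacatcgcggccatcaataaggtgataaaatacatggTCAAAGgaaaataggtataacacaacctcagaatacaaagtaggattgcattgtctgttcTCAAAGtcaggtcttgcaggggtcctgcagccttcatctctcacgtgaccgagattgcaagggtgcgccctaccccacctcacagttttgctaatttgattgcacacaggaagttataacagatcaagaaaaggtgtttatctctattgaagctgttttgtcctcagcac
Tcf7 promoter, chr11:52282546-52282845, minus strand: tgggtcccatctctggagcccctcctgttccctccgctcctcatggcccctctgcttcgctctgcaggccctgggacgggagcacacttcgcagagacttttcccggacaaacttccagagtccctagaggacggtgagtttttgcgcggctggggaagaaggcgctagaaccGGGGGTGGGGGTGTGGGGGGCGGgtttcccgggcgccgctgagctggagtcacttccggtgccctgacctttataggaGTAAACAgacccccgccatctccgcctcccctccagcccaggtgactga
Capitals mark every match, on either strand, to CTTTGA (the TCF and LEF motif), GTAAACA (the FOXO motif) or CCNCNCCC (the KLF and SP motif). The TCF and LEF motif was in 5257 of 32851 promoter windows, the FOXO motif in 3.65% and the KLF and SP motif in 49.5%. The Klf2 window held 4 overlapping KLF and SP matches and the Il7r window no match to any of the 3. This Lef1 window, at a start within the gene, held 2 TCF and LEF matches, and the Tcf7 window held 1 FOXO match and 4 overlapping KLF and SP matches. The other 3 Lef1 windows and the other Tcf7 window had no TCF and LEF match and no FOXO match. Those Lef1 windows held 20, 15 and 4 KLF and SP matches and that Tcf7 window 5, overlapping matches included. The Dapl1 window also had 1 FOXO match. A match is a description of letters, and a window with none says nothing of the factor.

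The authors sorted 14491 of the cells used here into 19 numbered clusters. Clusters 3, 6, 8, 9 and 10 carried the T cell genes Cd3d, Cd3e, Cd3g and Cd247 and are called T cell-like below. They held 695 cells in the anti-PD-1 library, 771 in the anti-CTLA-4 library, 1256 in the combination library and 1107 in the control library, with 1783024, 2497062, 3000830 and 2741630 UMIs. Summed over the 4 genes, CD3 transcripts were 3722, 3459, 3727 and 4593 per 1000000 UMIs (CPM) in those libraries in that order. Trac and Trbc2 were not used here. Cluster 8 carried Cd8b1 (1273 CPM), cluster 3 Cd4 (393 CPM), cluster 10 the regulatory T cell gene Foxp3 (176 CPM) and cluster 9 the cycling gene Stmn1 (1766 CPM). Clusters 5 and 14 are NK cell-like, with the killer receptor gene Ncr1 at 1031 and 658 CPM. Of 14508 barcode sequences, 110 occurred in 2 or more libraries.

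Across cell types the members split in 2. Tcf7, Lef1, S1pr1 and Dapl1 were close to absent from macrophage/monocyte-like cells (clusters 1, 2, 4, 7 and 15), at 0.951, 0.649, 0.432 and 0.130 CPM over all libraries, against 40.3, 68.6, 16.4 and 24.8 CPM in T cell-like cells. Klf2, Il7r and Slamf6 were not: macrophage/monocyte-like cells had 446 CPM of Klf2, 64.0 CPM of Il7r and 23.1 CPM of Slamf6, and T cell-like cells had 286, 162 and 72.3 CPM. T cell-like cells therefore held 84.7% of all Dapl1 UMIs and 78.8% of S1pr1 UMIs but 13.6% of Klf2 UMIs. Macrophage transcripts were seen in T cell-like cells, where C1qb stood at 193 CPM against 4923 CPM in macrophage/monocyte-like cells. Free RNA and doublets were not told apart, and their part in the Klf2, Il7r and Slamf6 counts was not tested by a correction. Per library C1qb in T cell-like cells was 1.89% to 4.90% of its macrophage level, Lyz2 3.02% to 7.43% and Csf1r 3.37% to 6.57%. Klf2 was at 48.3% to 75.0% of its own macrophage level.

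With the libraries pooled, cluster 6 had the highest level of 5 of the 7 members among the lymphocyte clusters. There Tcf7 stood at 167 CPM, Lef1 at 103, Il7r at 352, S1pr1 at 56.0 and Klf2 at 697 CPM over all libraries. Its Tcf7 interval (147 to 190 CPM) lay above that of the next cluster, the Ncr1-bearing cluster 5, at 107 CPM (92.8 to 122). Cluster 10 came next for Tcf7 with 31.4 CPM, and its interval overlapped those of clusters 14 and 9. Lef1 was the least restricted member: cluster 6 (103 CPM), cluster 8 (87.6), cluster 14 (85.0) and cluster 5 (70.9) followed each other with overlapping intervals, and its order turned in the combination library, where cluster 8 had 208 CPM and cluster 6 had 84.0 CPM. For Il7r, the Foxp3-bearing cluster 10 followed cluster 6 at 282 CPM (248 to 319), just below the interval of cluster 6 (323 to 384), and cluster 3 was lower at 148 CPM. Slamf6 was highest in cluster 10 (129 CPM), with cluster 6 (113 CPM) overlapping it. Dapl1 was seen in clusters 9, 6 and 8 at 44.8, 36.5 and 27.2 CPM, was at 4.49 CPM in cluster 10 and had no UMI in clusters 5 and 14. The clusters were drawn from the same cells, so these orders describe the clusters and carry no test.

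**Figure D1:**
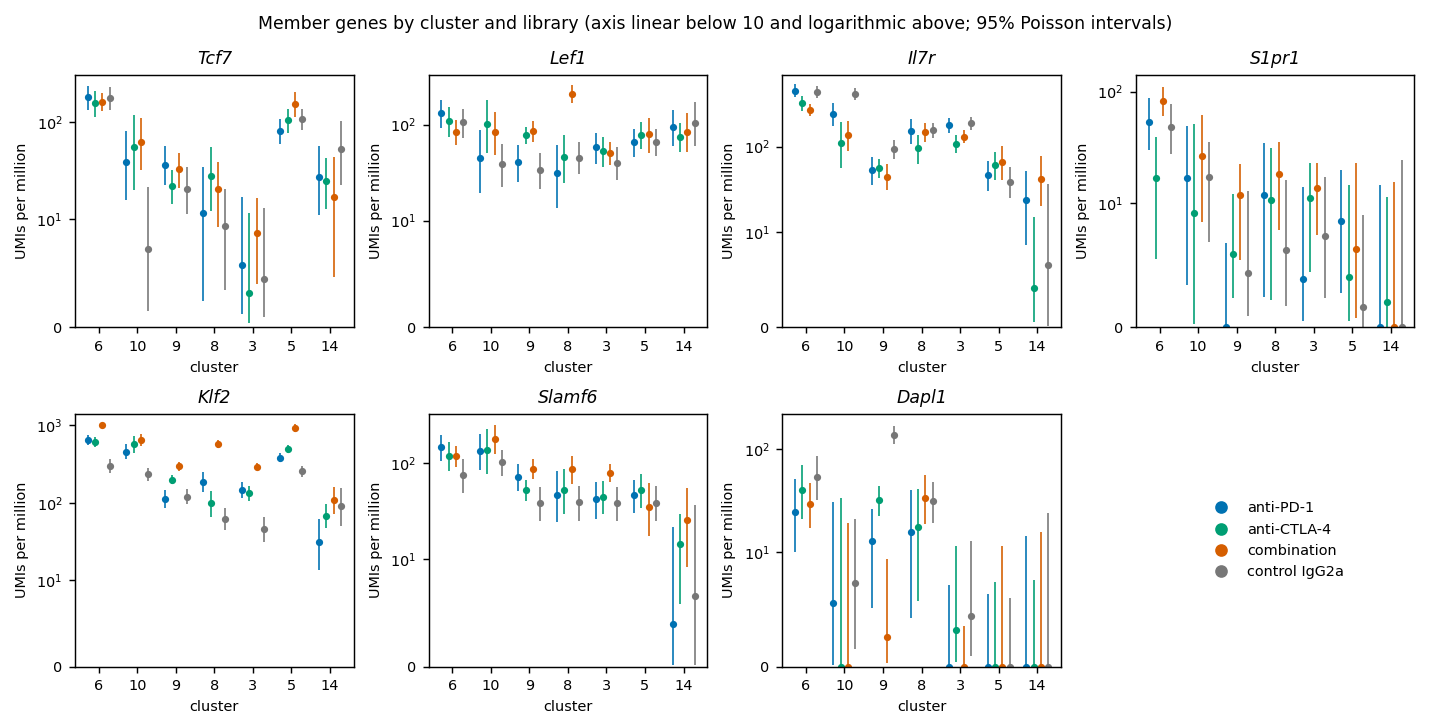
UMIs per 1000000 (CPM) of each member (vertical axis, linear below 10 and logarithmic above) in 7 lymphocyte clusters (horizontal axis), with 1 point per library and 95% Poisson intervals. Cluster 6 is high for Tcf7, Il7r, S1pr1 and Klf2, Dapl1 is highest in the control library of cluster 9, and Klf2 is higher in the combination library than in the control library in clusters 3, 5, 6, 8, 9 and 10.

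The authors' finer table of 12 lymphoid clusters split cluster 6. Of its cells, 519 were in lymphoid cluster 1, 340 in lymphoid cluster 6 and 81 in lymphoid cluster 8. Lymphoid cluster 6 had the highest Tcf7, 240 CPM with a UMI in 28.6% of cells, and also Il7r at 386 CPM and Dapl1 at 61.3 CPM, while lymphoid cluster 1 had the highest Klf2 at 845 CPM and Tcf7 at 104 CPM. Il7r was highest in lymphoid cluster 7, at 425 CPM, most of whose cells were of cluster 10. Lef1 was highest in lymphoid cluster 8, at 189 CPM in 11.8% of cells. Lymphoid cluster 6 was mixed by its markers: of its 109 cells with Tcf7, 95.4% had a CD3 UMI, 51.4% a UMI of the killer receptor genes Klra1, Klra6, Klra7 or Klra8, 22.9% one of Cd8a or Cd8b1 and 0.917% one of Cd4. Of its 272 cells without Tcf7, 45.2% had a UMI of those killer receptor genes. Cluster 6 also held mast cell and basophil transcripts in 1 library, 688 CPM summed over 4 marker genes in the anti-CTLA-4 library and none in the other 3.

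Tcf7 was seen in 294 of 3829 T cell-like cells (7.68%). It stood at 47.1 CPM in the anti-PD-1 library, 35.2 in the anti-CTLA-4 library, 49.0 in the combination library and 31.0 CPM in the control library. The anti-PD-1 and combination libraries were the high ones, with log2 ratios to control of 0.60 (0.15 to 1.06) and 0.66 (0.26 to 1.06), while the anti-CTLA-4 ratio of 0.18 (−0.26 to 0.63) took in 0. Over the processing alternatives the combination ratio ranged from 0.30 to 0.83, so it was under 1.5-fold in some of them. Within cluster 6, where most of the Tcf7 lay, the libraries had 181, 156, 161 and 177 CPM and all 3 intervals of the ratio took in 0. There 1 cell held 17 of the 92 Tcf7 UMIs of the combination library. Without the highest cells the ratio of the combination in cluster 6 was −0.37 (−0.88 to 0.16). Cluster 6 made up 27.6%, 24.3% and 32.6% of T cell-like cells in the treated libraries against 18.4% in the control library, and with the 5 clusters weighted equally the log2 ratio of the combination was 0.38 and that of anti-PD-1 0.32. In the Foxp3-bearing cluster 10 the treated libraries had 7, 6 and 12 Tcf7 UMIs against 3 in the control library, and without that cluster both ratios were 0.45. Thinned to 1000 UMIs per cell, 5.11%, 5.46%, 4.52% and 3.89% of T cell-like cells had a Tcf7 UMI, with overlapping intervals. Markers of NK cells moved too: Ncr1, Klrb1c, Klre1, Klra8 and Eomes summed to 192, 159 and 48.3 CPM in T cell-like cells of the treated libraries and 143 CPM in those of the control library. Among T cell-like cells with a CD3 UMI and none of Ncr1 or the 4 Klra genes, a restriction chosen after seeing the data, the log2 ratio of Tcf7 was 0.86 (0.27 to 1.45) for anti-PD-1, 0.32 (−0.27 to 0.91) for anti-CTLA-4 and 1.20 (0.71 to 1.70) for the combination.

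Lef1 stood at 58.9 CPM under anti-PD-1, 72.1 under anti-CTLA-4, 91.0 under the combination and 47.4 CPM in the control library. The combination library was the highest, at a log2 ratio of 0.94 (0.63 to 1.25), followed by anti-CTLA-4 at 0.60 (0.27 to 0.94) and anti-PD-1 at 0.31 (−0.07 to 0.69). Few cells carried much of it. A cell of cluster 9 held 34 of the 273 Lef1 UMIs of the combination library, and 1 cell of cluster 9 held 38 of the 180 of the anti-CTLA-4 library. Without the highest cell of each library the ratios were 0.81 for the combination and 0.32 for anti-CTLA-4, so the anti-CTLA-4 value then stood under 1.5-fold. The 0.81 still includes a cell of cluster 8 that held 33 Lef1 UMIs of the combination library. The ratio without both high cells of that library was not computed. In the Cd8-led cluster 8 the combination library had 92 Lef1 UMIs in 28 cells (208 CPM), against 29 UMIs in 26 cells (45.4 CPM) in the control library, a log2 ratio of 2.20 (1.58 to 2.85) that was 1.66 (0.98 to 2.37) without the highest cells. In cluster 6 Lef1 was 131, 109 and 84.0 CPM in the treated libraries and 105 CPM in the control library, and all 3 intervals of the ratio took in 0.

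**Figure D2:**
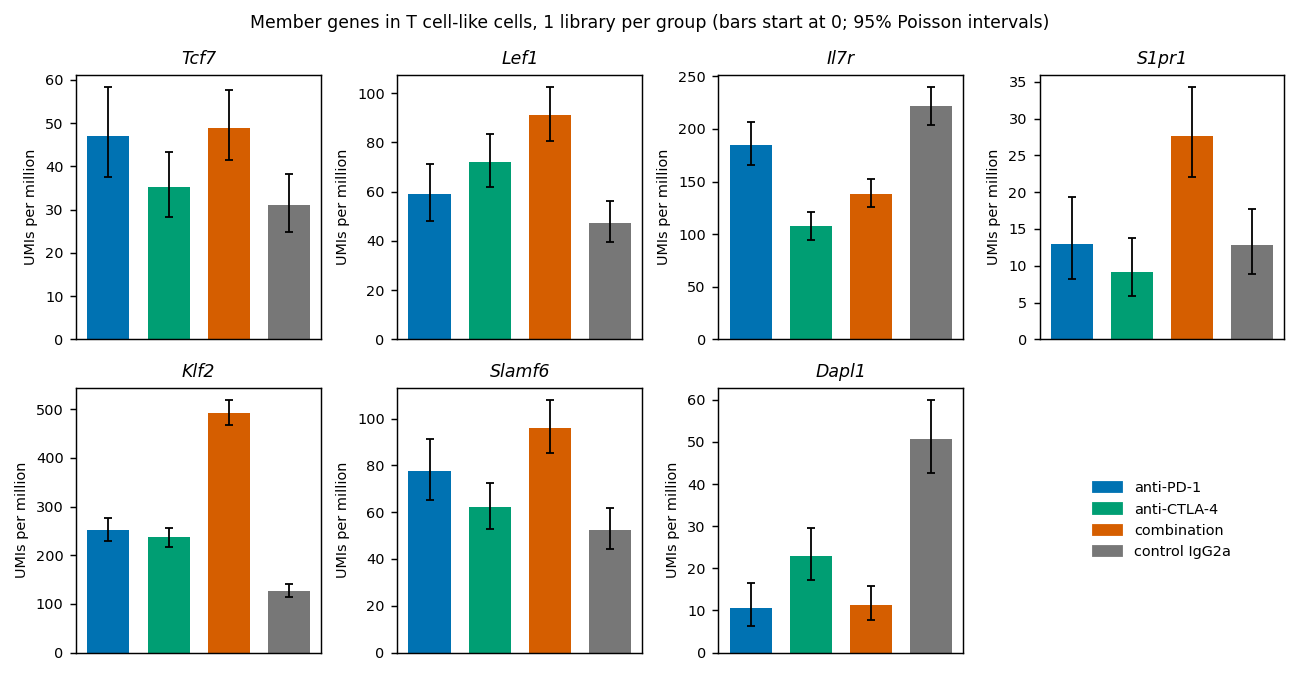
UMIs per 1000000 (CPM) of each member in T cell-like cells (vertical axes, from 0) in the anti-PD-1, anti-CTLA-4, combination and control IgG2a libraries from left to right, with 95% Poisson intervals and 1 library per group. Klf2 is highest in the combination library at 493 CPM, and Il7r and Dapl1 are highest in the control library at 221 and 50.7 CPM.

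Klf2 was the member furthest above control in each treated library. It stood at 252 CPM under anti-PD-1, 237 under anti-CTLA-4, 493 under the combination and 127 CPM in the control library. All 3 treated libraries were above control, at log2 ratios of 0.99 (0.78 to 1.19), 0.89 (0.70 to 1.09) and 1.95 (1.78 to 2.12). The combination was also above anti-PD-1 alone, by 0.96 (0.81 to 1.12), and above anti-CTLA-4 alone, by 1.06 (0.92 to 1.20). Thinned to 1000 UMIs, 14.7%, 13.4% and 27.5% of T cell-like cells had a Klf2 UMI in the treated libraries against 9.59% in the control library. The combination was higher than control in each T cell-like cluster, by a log2 ratio of 3.19 (2.71 to 3.71) in cluster 8, 2.68 (2.15 to 3.27) in cluster 3, 1.73 (1.42 to 2.05) in cluster 6, 1.48 (1.08 to 1.88) in cluster 10 and 1.31 (0.94 to 1.69) in cluster 9. Cluster 5 had 1.85 (1.56 to 2.14), and cluster 14 had 0.26 (−0.73 to 1.31). Among the T cell-like clusters Klf2 was lowest in clusters 3 and 8 of the control library, at 45.7 and 62.6 CPM. It was at 294 and 573 CPM in those of the combination library. Among cells with a Cd4 UMI and none of Cd8a, Cd8b1 or Foxp3, 82 of 322 thinned cells (25.5%) had Klf2 in the combination library and 5 of 238 (2.10%) in the control library. Among cells with a Cd8a or Cd8b1 UMI and no Cd4 UMI the shares were 72 of 262 (27.5%) and 33 of 410 (8.05%).

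The difference in Klf2 was not confined to T cells. Macrophage/monocyte-like cells had 336, 433 and 736 CPM in the treated libraries and 264 CPM in the control library, a log2 ratio of 1.48 (1.40 to 1.56) for the combination, and cluster 0 had 529, 948 and 1534 CPM against 333 CPM. A CD3 gate took cells of any cluster, not only the T cell-like ones, with a CD3 UMI and no C1qa, C1qb, C1qc or Csf1r UMI. In that gate the log2 ratio of Klf2 was 2.41 for the combination, 1.75 for anti-PD-1 and 1.41 for anti-CTLA-4. Klf2 belongs with Fos and Jun to the genes that handling of cells can induce. Summed over 17 such genes listed after seeing the data, T cell-like cells had 3047, 3082 and 4513 CPM in the treated libraries and 2624 CPM in the control library. In the combination 9 of the 17 were past 1.5-fold higher and none lower, with a median log2 ratio of 0.60, among them Junb at 1.18 and Dusp1 at 0.95, while mitochondrial transcripts were 0.960% of UMIs against 1.19% in the control library. Macrophage/monocyte-like cells also had 9 of 17 higher, with a median of 0.68. The part of handling in the Klf2 difference was not tested.

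S1pr1, the egress receptor, had few counts, 23 UMIs in T cell-like cells under anti-PD-1, 23 under anti-CTLA-4, 83 under the combination and 35 in the control library, or 12.9, 9.21, 27.7 and 12.8 CPM. The combination library was the high one, at a log2 ratio of 1.12 (0.53 to 1.73), and the other 2 intervals took in 0. A single cell of cluster 6 held 20 of the 83 UMIs, and without the highest cells the ratio was 0.85. Thinned to 1000 UMIs the ratio was 0.43, and 1.76%, 1.37%, 1.72% and 1.36% of cells had a UMI, so a higher share of cells was not detectable at this depth.

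Il7r went the other way. It stood at 185 CPM under anti-PD-1, 107 under anti-CTLA-4, 138 under the combination and 221 CPM in the control library. The log2 ratios were −0.26 (−0.46 to −0.06), −1.04 (−1.26 to −0.83) and −0.68 (−0.86 to −0.50), so all 3 treated libraries were below control. These values also carry the mix of clusters. Cluster 9, at 60.8 CPM of Il7r, held 1181508 of 2497062 T cell-like UMIs under anti-CTLA-4 and 679954 of 2741630 in the control library. The anti-CTLA-4 ratio ranged from −1.06 to −0.78 over the processing alternatives, which include leaving out cluster 9. The combination lay between the single antibodies, at −0.42 (−0.63 to −0.21) against anti-PD-1 and 0.37 (0.14 to 0.59) against anti-CTLA-4. The widest gap was in cluster 10, with 239, 110 and 136 CPM in the treated libraries and 413 CPM in the control library, where 1 control cell held 42 of 170 UMIs. Regulatory T cell markers moved with it in that cluster, 4 genes summing to 1079, 734 and 1248 CPM in the treated libraries and 2048 CPM in the control library. There 6 marker genes of group 2 innate lymphoid cells summed to 634, 312 and 357 CPM in the treated libraries and 547 CPM in the control library. The part of either marker set in the Il7r difference was not tested. Without cluster 10 the ratio of the combination was −0.44 and that of anti-CTLA-4 −0.81. In cluster 6 it was 451, 322 and 271 CPM in the treated libraries and 436 CPM in the control library, a log2 ratio of −0.68 (−1.02 to −0.35) for the combination and 0.05 (−0.31 to 0.40) for anti-PD-1. In cluster 8 the combination and control libraries were close, at 147 and 156 CPM. Thinned to 1000 UMIs, 16.3%, 12.6% and 15.3% of T cell-like cells of the treated libraries and 20.6% of those of the control library had an Il7r UMI.

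**Figure D3:**
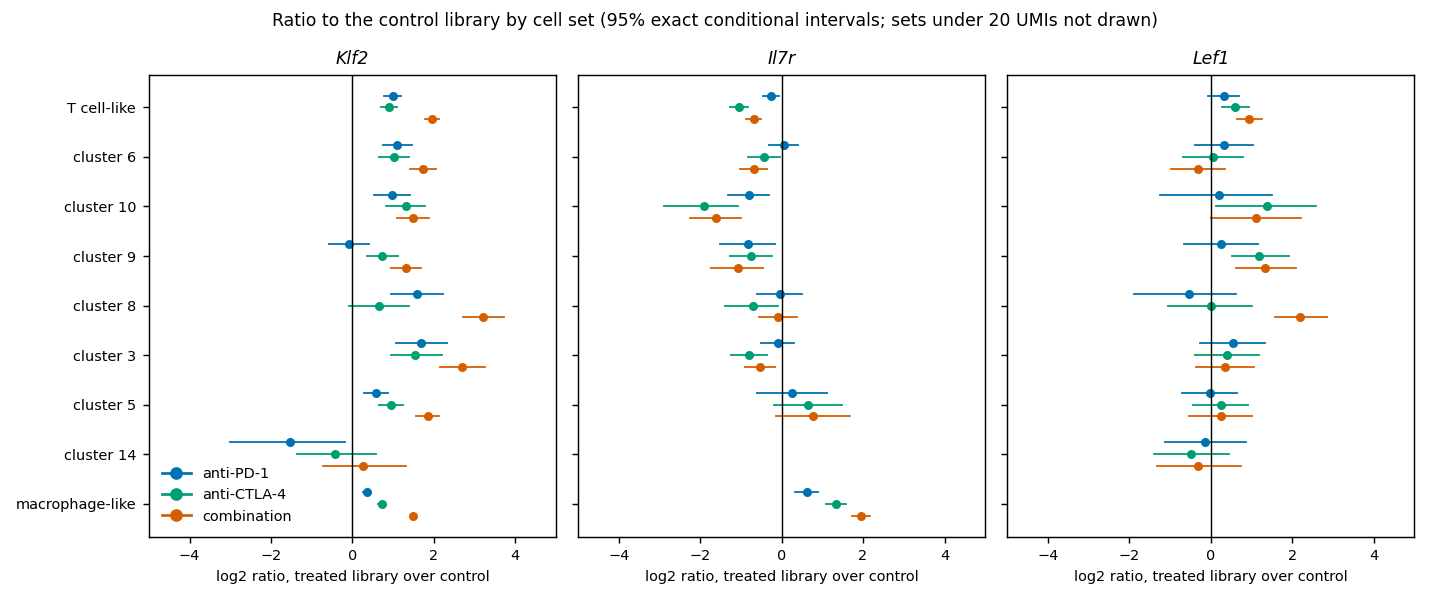
Log2 ratio of each treated library to the control library (horizontal axis) for Klf2, Il7r and Lef1 in T cell-like cells, in each lymphocyte cluster and in macrophage/monocyte-like cells, with 95% intervals for counting error. Klf2 lies right of 0 in most cell sets, while Il7r lies left of 0 in T cell-like cells and right of 0 in macrophage/monocyte-like cells, at −0.68 and 1.95 with the combination.

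In macrophage/monocyte-like cells Il7r had the opposite direction, at 43.9, 72.3 and 111 CPM in the treated libraries and 28.7 CPM in the control library, a log2 ratio of 1.95 (1.72 to 2.18) for the combination. Cluster 7 held most of it. There Il7r stood at 266 CPM under anti-PD-1, 289 under anti-CTLA-4, 410 under the combination and 170 CPM in the control library, and the cluster had 139, 282, 323 and 106 cells. Clusters 1, 2 and 4 did not repeat this. In cluster 1 Il7r was lower than control with either antibody alone, at 7.07 CPM (3.23 to 13.4) under anti-PD-1 and 7.37 CPM (3.81 to 12.9) under anti-CTLA-4, against 18.3 CPM (14.7 to 22.5) in the control library. In clusters 1, 2 and 4 the combination had 13.4, 36.1 and 72.6 CPM and the control library 18.3, 36.1 and 59.4 CPM, with overlapping intervals. Over all cells cluster 7 had 317 CPM of Il7r, an interval that overlapped that of T cell-like cluster 6.

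**Figure D4:**
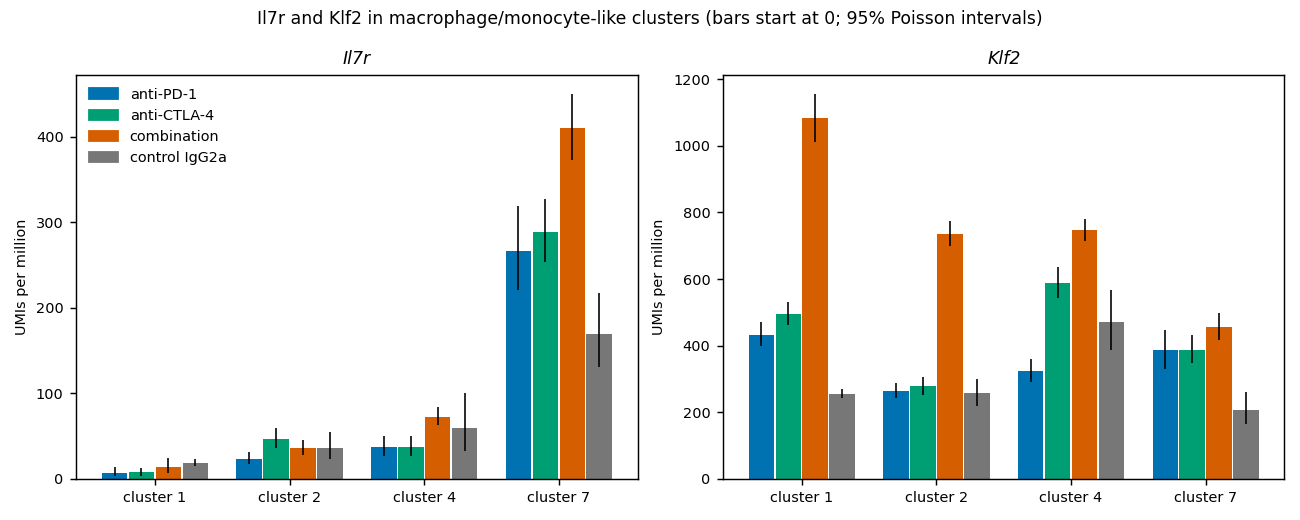
UMIs per 1000000 (CPM) of Il7r and Klf2 (vertical axes, from 0) in macrophage/monocyte-like clusters 1, 2, 4 and 7 of the anti-PD-1, anti-CTLA-4, combination and control IgG2a libraries from left to right, with 95% Poisson intervals. Il7r is highest in cluster 7, and Klf2 in the combination library is above control in all 4 clusters.

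Slamf6, a SLAM family receptor, stood at 77.4 CPM under anti-PD-1, 62.1 under anti-CTLA-4, 96.0 under the combination and 52.5 CPM in the control library. The anti-PD-1 and combination libraries were above control, at log2 ratios of 0.56 (0.21 to 0.91) and 0.87 (0.58 to 1.17), and the interval of anti-CTLA-4 took in 0 at 0.24 (−0.10 to 0.58). The combination was higher in clusters 3, 8, 9 and 10, at 1.05, 1.14, 1.20 and 0.80, and in cluster 6 its interval took in 0 at 0.64 (−0.04 to 1.37). Together with Pdcd1, the gene of PD-1, these genes mark the renewing cells of exhausted CD8 responses. Among thinned cells with Cd8a or Cd8b1 and no Cd4, 42 of 1058 had Tcf7, 7 had Slamf6 and Pdcd1, and 3 had Tcf7 and Pdcd1. The 3 lay in the anti-CTLA-4 and control libraries (2 of 229 and 1 of 410), and the 0 of 157 and 0 of 262 in the anti-PD-1 and combination libraries allow shares of up to 1.91% and 1.15% when 3 counts are taken as the limit, or 2.32% and 1.40% by the Clopper-Pearson bound, so no difference was detectable at this depth.

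Dapl1 was a transcript of few cells. T cell-like cells had 19 UMIs under anti-PD-1, 57 under anti-CTLA-4, 34 under the combination and 139 in the control library, or 10.7, 22.8, 11.3 and 50.7 CPM. The control library was the high one, and the log2 ratios were −2.25 (−3.03 to −1.55), −1.15 (−1.62 to −0.70) and −2.16 (−2.75 to −1.61). Most of the gap lay in the cycling cluster 9, which had 7, 38 and 2 UMIs in the treated libraries and 95 UMIs in the control library, in 12 cells, 1 of which held 29. Cd8a and Cd8b1 moved with it, summing to 621, 673 and 397 CPM in cluster 9 of the treated libraries and 975 CPM in that of the control library, and to 536, 585 and 463 CPM against 865 CPM over all T cell-like cells, and their part was not tested. Without cluster 9 the ratios were −1.14, −0.56 and −0.58. Thinned to 1000 UMIs, 1.12%, 0.82% and 0.72% of cells of the treated libraries and 1.99% of those of the control library had a UMI, with overlapping intervals. Among all genes, those most like Dapl1 over the 12 lymphoid clusters were Cd8b1 and Cd8a, each with a Pearson r of 0.85.

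Counted together, 5 members were past 1.5-fold higher in the combination (Tcf7, Lef1, S1pr1, Klf2 and Slamf6) and 2 past 1.5-fold lower (Il7r and Dapl1). Of the 9208 genes with at least 20 UMIs in those 2 libraries, 9.51% were past 1.5-fold higher and 11.7% lower. Anti-PD-1 had 2 higher (Tcf7 and Klf2) and 1 lower (Dapl1), where 10% of 8819 genes were higher and 10.7% lower. Anti-CTLA-4 had 2 higher (Lef1 and Klf2) and 2 lower (Il7r and Dapl1), where 10.7% of 9052 genes were higher and 14.1% lower. The median log2 ratio of the members was 0.31 under anti-PD-1, beside −0.01 over all genes measured. Under anti-CTLA-4 it was 0.18 beside −0.03, and it turned to −0.060 with clusters 5 and 14 added or with the lymphoid table and to −0.035 without cluster 10. Under the combination it was 0.87 beside −0.03, and after thinning the median was 0.54 and 3 members were past 1.5-fold higher. The 3 comparisons share the control library.

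Members were seen in the same cells more often than their separate shares give. In 3569 T cell-like cells thinned to 1000 UMIs, 20 of 21 pairs were seen together in more cells than the product of their shares, and in 8 the share of the second gene among cells with the first had an interval above that among cells without it. Tcf7 was in 4 of the 8: 13.9% of cells with Tcf7 had Lef1 against 5.96% of cells without it, 28.5% against 15.98% had Il7r, 27.9% against 16.3% had Klf2 and 13.3% against 6.64% had Slamf6. Klf2, which drives S1pr1, was in 40.0% of cells with S1pr1 and 16.4% of cells without. Lef1 with S1pr1, Il7r with Klf2 and Klf2 with Slamf6 were the other pairs. These shares pool the libraries. Within each library the 8 pairs had the same direction, but most intervals overlapped. The 8 were picked over the cells of these same libraries, so the shared direction is no separate support. They lay apart for Tcf7 with Il7r in the anti-CTLA-4 and control libraries. They also did for Tcf7 with Klf2 and Lef1 with S1pr1 in the control library and Klf2 with Slamf6 in the combination library. Of all these cells 59.7% had none of the members, 11.2% had 2 or more and 8 cells had 4. In cluster 6, 26.7% had 2 or more, and among macrophage/monocyte-like cells 1.78%. Within cluster 6 alone 14 of 21 pairs were above the product of their shares, and 6 of the 8 named pairs were. The 8 were picked over cells that include those of cluster 6, so the 6 are no separate support. In clusters 3, 8, 9 and 10 there were 8, 15, 10 and 10 of 21 pairs above the product. Tcf7 with Lef1 was in 2.13% of the cells of cluster 6, where the product is 1.39%. Tcf7 with Klf2 was in 4.01% of them, where the product is 4.12%. By library 12.1%, 9.56% and 14.1% of T cell-like cells of the treated libraries and 8.78% of those of the control library had 2 or more members.

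**Figure D5:**
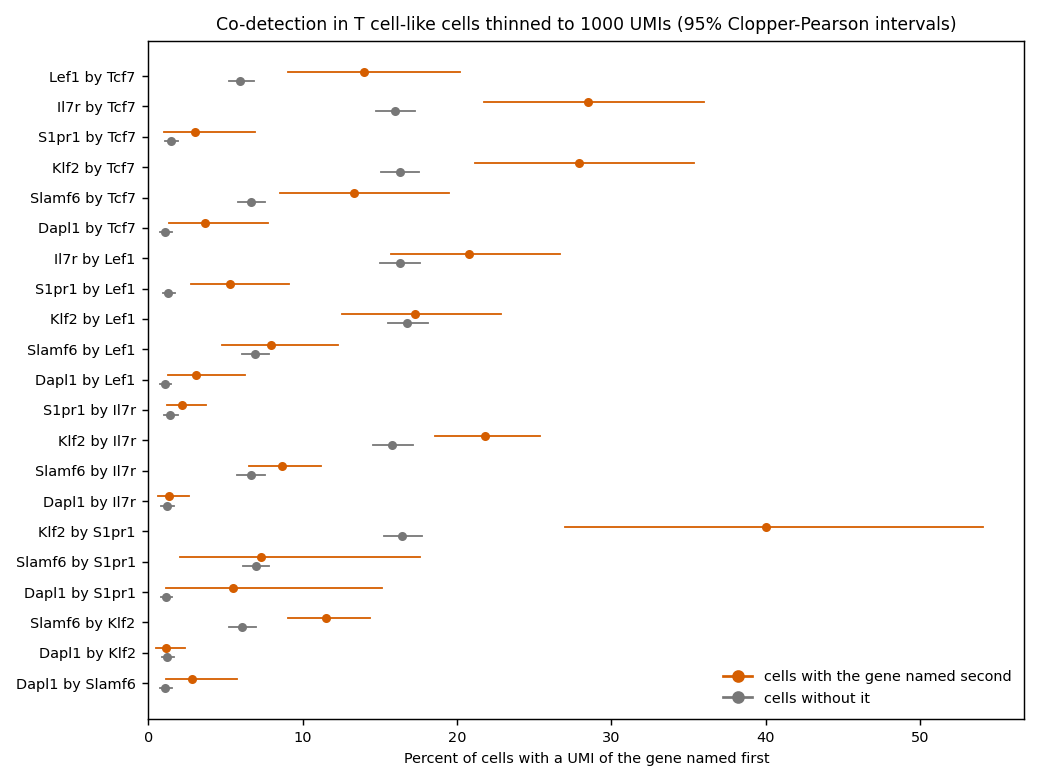
Percent of T cell-like cells with a UMI of the gene named first (horizontal axis) among cells with and cells without the gene named second, for all 21 pairs of members in cells thinned to 1000 UMIs, with 95% Clopper-Pearson intervals. Cells of all libraries are pooled. Cells with Tcf7 lie right of cells without it for Lef1, Il7r, Klf2 and Slamf6, and Klf2 by S1pr1 shows the widest gap, 40.0% against 16.4%.

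Cells with Tcf7 differed from the others in genes outside the list. Cluster 6 held 184 of the 294 T cell-like cells with Tcf7 and 808 of the 3535 without it. The CPM values below were not compared within a cluster, so they also set cluster 6 against the other clusters. Among 2850 genes at 50 CPM or more in either set, 774 differed in the same direction in all 4 libraries. The number to be expected with no difference was not computed. The 10 highest in the 294 cells with Tcf7 were Id3, Klra6, Eif4ebp2, Klra8, Klra7, Klra1, Smc5, Plk1, Cd7 and Fam208a. Id3, an inhibitor of E-protein transcription factors that marks memory-like T cells, was at 76.2 CPM in cells with Tcf7 and 5.74 CPM in cells without, a log2 ratio of 3.73. The 10 lowest were Ccl1, Gzmf, Serpinb9b, Csf1, Ccl3, Havcr2, Csf2, Ifng, Serpinb1a and Ifitm1, which include secreted effector genes. Havcr2, the gene of the inhibitory receptor TIM-3, was at 14.0 CPM in cells with Tcf7 and 117 CPM in cells without, and Ifng at 30.5 and 192 CPM. Of the other members Dapl1 was at 103 against 18.2 CPM, Slamf6 at 161 against 64.8 CPM and S1pr1 at 44.4 against 14.0 CPM. The Dapl1 and S1pr1 values rest on few cells. After thinning, 6 cells had Tcf7 with Dapl1 and 5 had Tcf7 with S1pr1. For both pairs the intervals of the shares among cells with and without Tcf7 overlapped. Klra genes belong to NK cells and related T cells, and 25.9% of cells with Tcf7 had a UMI of 1 of the 4 named, against 5.69% of cells without. Within cluster 6 these shares were 28.8% and 13.4%. Across the 12 lymphoid clusters Tcf7 was most like Lsg1 and Pdlim1 (Pearson r of 0.93 each), Klf2 was most like Klf3 (0.91), Il7r was most like AU020206 (0.95) and Slamf6 was most like Tagap1 (0.93), and among members the closest pair was Il7r and S1pr1 (0.84). These are correlations over 12 clusters of the same 4 libraries and are descriptions.

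The combination values of 5 lists around the members are read beside the 9.51% of all genes measured that were past 1.5-fold higher and the 11.7% that were lower. Of 14 measured genes of T cell quiescence and the TCF1 programme, none was past 1.5-fold higher in the combination and 4 were lower (Bach2, Myb, Nsg2 and Igfbp4), at a median of 0.03. Satb1, a chromatin organiser of T cells, had 215, 159 and 219 CPM in the treated libraries and 169 CPM in the control library, and Foxo1 had 21.9, 18.0 and 19.99 CPM against 23.3 CPM. Ikzf1 had 109, 113 and 127 CPM against 109 CPM, and Btg2 had 133, 141 and 195 CPM against 168 CPM. Of 17 genes of lymph node homing and egress, 5 were higher (Cd69, Rgs1, Gpr183, Itga4 and Cxcr4) and 2 lower, among them Itgae, at a median of 0.28. Cd69, whose product binds and removes S1PR1 from the surface, had 175, 201 and 246 CPM in the treated libraries and 142 CPM in the control library. Cxcr4, the receptor for CXCL12, had 37.6, 34.0 and 51.3 CPM against 17.9 CPM, and Itgae, an integrin of resident T cells, had 5.61, 2.40 and 5.00 CPM against 22.6 CPM.

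Of 15 genes of interleukin-7 signalling and survival, 3 were past 1.5-fold higher in the combination (Stat5a, Cish and Pim1) and 2 lower (Bcl2 and Il2ra), at a median of 0.03. The survival gene Bcl2, a target of IL-7 signals, had 154, 103 and 95.3 CPM in the treated libraries and 169 CPM in the control library. Pim1, a kinase gene induced by cytokines, had 367, 376 and 496 CPM against 245 CPM, and Stat5a, which encodes a transducer of IL-7 signals, had 30.8, 20.4 and 22.3 CPM against 13.1 CPM. Of 9 SLAM family genes and adaptors, none was higher and 1 lower (Cd244), at a median of 0.04. Slamf1, Cd84 and the adaptor gene Sh2d1a were at 0.41, 0.34 and 0.34. The adaptor gene Sh2d2a went the other way, at −0.50 (−0.68 to −0.31). It had 164, 161 and 137 CPM in the treated libraries and 193 CPM in the control library. Of 16 terminal effector and exhaustion genes, 3 were higher (Gzma, Ifng and Id2) and 4 lower (Pdcd1, Tox, Gzmb and Cd160), at a median of −0.29. Pdcd1 stood at 241, 198 and 154 CPM in the treated libraries and 352 CPM in the control library, and Ifng at 267, 124 and 238 CPM against 108 CPM. Gzma, which encodes a granzyme, had 1118, 1258 and 574 CPM in the treated libraries and 347 CPM in the control library, and Cd160 had 103, 92.9 and 51.7 CPM against 119 CPM. In the libraries given a single antibody the 5 lists had 0 to 4 genes higher and 0 to 5 lower, at medians between −0.34 and 0.14.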

How the data were processed

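Single-cell RNA was counted as UMIs per gene and cell in 4 libraries of tumour CD45+ cells. What the authors deposited were unnormalized counts of UMIs by gene and barcode, with 2 tables of cluster numbers, and per the submitters' processing notes these come from Cell Ranger, Seurat and the mm10 build, with versions not given in the sources used here. Cells absent from the cluster table of all CD45+ cells were left out. Counts were summed per library and cluster and divided by the UMI total of those cells, as counts per 1000000 UMIs (CPM). Intervals at 95% are exact Poisson for CPM, exact conditional binomial for log2 ratios and Clopper-Pearson for shares of cells. No test was run, as each group has 1 library. Shares were taken after thinning each cell to 1000 UMIs, which left out 69, 39, 150 and 2 T cell-like cells (anti-PD-1 first, then anti-CTLA-4, combination, control). Genes with at least 20 UMIs in the 2 libraries compared gave the background, and 1.5-fold was the size counted. No doublet caller was run, and cells among the highest 3% of UMIs were left out as an alternative.

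The members and lists were chosen with earlier results of these data known. Named genes were the members, the genes most like each member over 12 lymphoid clusters and the 10 highest and 10 lowest beside Tcf7. From each companion list the 4 genes with the largest absolute log2 ratio of combination to control and at least 50 UMIs were taken. Other genes of the companion lists were named after their values were seen. A gene of the homing list is counted but not reported here by name. Promoters are from RefSeq. Python 3.11.15, NumPy 2.4.6, SciPy 1.17.1, pandas 2.3.3 and matplotlib 3.10.9 were used, and the ratio and interval code was tested on simulated data.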

Additional observations from a re-analysis of the deposited data

Results flagged for a closer look

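Il7r differed from control in opposite directions in several T cell-like clusters and in macrophage/monocyte-like cells as a class, and the difference between the cell sets was not tested. With anti-PD-1 the log2 ratio was −0.79 in cluster 10 and −0.83 in cluster 9, near 0 in clusters 3 (−0.09), 6 (0.05) and 8 (−0.04), and 0.62 in macrophage/monocyte-like cells. With anti-CTLA-4 it was −1.91 in cluster 10, −0.80 in cluster 3, −0.43 in cluster 6, −0.71 in cluster 8 and −0.75 in cluster 9, and 1.33 in macrophage/monocyte-like cells. With the combination it was −1.60 in cluster 10, −0.53 in cluster 3, −0.68 in cluster 6, −1.08 in cluster 9 and −0.09 in cluster 8, and 1.95 in macrophage/monocyte-like cells. Macrophage/monocyte-like cluster 1 went the other way with a single antibody, at 7.07 CPM under anti-PD-1 and 7.37 CPM under anti-CTLA-4, against 18.3 CPM in the control library.

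Klf2 with anti-PD-1 was lower than control in the NK cell-like cluster 14, at −1.54, and higher in clusters 3 (1.68), 5 (0.57), 6 (1.10), 8 (1.58) and 10 (0.97) and in macrophage/monocyte-like cells (0.35). It was −0.09 in cluster 9, and macrophage/monocyte-like cluster 4 had 324 CPM under anti-PD-1 and 471 CPM in the control library. This difference was not tested. In cluster 14 a single control cell held 8 of 14 Klf2 UMIs, and without the highest cells the ratio was −0.78 (−2.68 to 1.12).

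Members were also counted in 127 barcodes that the table of clusters does not list, with a median of 16627 UMIs. There were 15 UMIs of Tcf7, 45 of Lef1, 32 of Il7r, 8 of S1pr1, 356 of Klf2, 86 of Slamf6 and 12 of Dapl1. Of these barcodes 60 had both a CD3 UMI and a C1qa, C1qb, C1qc or Csf1r UMI.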

How the results depend on the processing

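Of the alternative values of the members' log2 ratios in T cell-like cells, 208 stayed within the counting interval and 23 moved beyond it, and no ratio past 1.5-fold changed sign. The Klf2 ratios ranged from 0.81 to 1.75 with anti-PD-1, from 0.75 to 1.41 with anti-CTLA-4 and from 1.77 to 2.41 with the combination. The median of the members with anti-CTLA-4, 0.18, was −0.060 with clusters 5 and 14 added, −0.035 without cluster 10 and −0.060 with the lymphoid table. With the combination it was 0.54 after thinning. Dapl1 in CD8-gated cells of the combination, −1.83, was 0.12 when cluster 8 was used instead. With anti-PD-1, 1 member was higher with clusters 5 and 14 added or the lymphoid table, and 0 past 2-fold. With anti-CTLA-4, 1 was higher after thinning, without the highest 3% of cells, under the CD3 gate, with clusters 5 and 14 added, without cluster 9 or 10, with the lymphoid table, with equal weights and without the highest cells, and 0 past 2-fold. There 1 was lower under the CD3 gate and without cluster 9. With the combination, 3 were higher after thinning and 2 past 2-fold, and 1 was lower with clusters 5 and 14 added, without cluster 9 or 10, with the lymphoid table and past 2-fold. Calls past 1.5-fold that ended include Tcf7 with the combination at 0.54 after thinning and Il7r at −0.52 with clusters 5 and 14. The cause was not tested. Leaving out the highest cells, and cells with Ncr1 or Klra UMIs, was chosen after seeing the data. S1pr1 and Dapl1 rest on 19 to 139 UMIs per library. No paired analysis was possible because each group has 1 library.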
